A study of Mus musculus with 64 samples.

Results

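The genes described here are 9 mouse membrane transporters grouped for arsenic uptake and efflux, and carriage of arsenic by each was not measured. They were taken by gene name from the liver and the gonadal adipose tables, and all 9 were found in both, among 48440 genes in each table. The uptake side comprises the aquaglyceroporins Aqp3, Aqp7 and Aqp9. The efflux side comprises the ATP-driven pumps Abcc1, Abcc2, Abcc3, Abcc4, Abcc6 and Abcb1a.

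RNA came from 129S6/SvEvTac mice of both sexes. Wild type (WT) animals carried the mouse As3mt gene, and humanized animals expressed the human ortholog, AS3MT, instead. Every animal, of both genotypes, had drunk water with 400 ppb of inorganic arsenic for 4 weeks, and no group without arsenic was analysed here, so the comparisons address genotype and sex under arsenic and not the response to arsenic. The labels do not give the age of the animals. Liver was represented by 12 libraries, 3 for each combination of genotype and sex, and gonadal adipose tissue by 11, with 2 for WT males and 3 for each other group. The labels number the libraries within a group without saying how animals were assigned or caged, so p-values measure the spread between these samples.

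Trivalent arsenic enters cells through aquaglyceroporins, channels whose usual cargo is glycerol. Inside the cell AS3MT methylates it, and arsenic bound to glutathione leaves through pumps of the ABCC family. In the liver, pumps on the bile canaliculus send their cargo into bile, while pumps on the sinusoidal side return it to blood. Adipocytes use an aquaglyceroporin to release the glycerol freed by lipolysis.

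Promoter windows of RefSeq (GRCm38.p6, from 250 bases before to 50 bases after an annotated start) were held for 6 of the 9 genes, 9 windows in all. The windows of Abcb1a and Abcc4 are shown because these are the pumps whose liver RNA differed between the sexes. Capitals mark matches, on either strand, to TGACNNNGC, the core of the antioxidant response element, and to TTCNNNGAA, a palindrome of STAT factors.
Abcb1a, chr5:8566841-8567140, plus strand: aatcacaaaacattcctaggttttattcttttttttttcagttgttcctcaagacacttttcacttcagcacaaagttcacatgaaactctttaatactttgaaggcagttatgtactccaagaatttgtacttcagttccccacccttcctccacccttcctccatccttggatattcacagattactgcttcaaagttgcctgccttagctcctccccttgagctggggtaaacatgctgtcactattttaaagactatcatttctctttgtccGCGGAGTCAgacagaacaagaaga
Abcc4 first window, chr14:118706170-118706469, minus strand: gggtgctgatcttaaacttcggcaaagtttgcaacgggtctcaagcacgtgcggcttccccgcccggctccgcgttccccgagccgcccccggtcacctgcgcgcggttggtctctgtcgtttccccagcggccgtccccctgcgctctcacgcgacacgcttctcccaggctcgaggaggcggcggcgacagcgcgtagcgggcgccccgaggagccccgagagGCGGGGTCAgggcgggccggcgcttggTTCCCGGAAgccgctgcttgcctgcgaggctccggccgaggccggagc
Abcc4 second window, chr14:118676882-118677181, minus strand: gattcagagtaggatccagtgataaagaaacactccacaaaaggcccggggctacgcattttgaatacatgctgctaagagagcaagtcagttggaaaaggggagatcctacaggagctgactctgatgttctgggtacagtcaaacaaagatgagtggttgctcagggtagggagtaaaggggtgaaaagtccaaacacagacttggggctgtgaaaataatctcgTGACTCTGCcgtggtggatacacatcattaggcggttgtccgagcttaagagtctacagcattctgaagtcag
With the first transcribed base counted as 1, the Abcb1a window holds GCGGAGTCA from position 27, read as the core on the other strand. The first Abcc4 window holds GCGGGGTCA from position -25 and TTCCCGGAA from position 3, and the second holds TGACTCTGC from position -23. TGACNNNGC occurs in 12.4% and TTCNNNGAA in 8.30% of all 32851 promoter windows, so a match is common and is given as a description of the letters. The motif AGGTCA, the half-site of nuclear receptors, occurs in 16.3% of windows. It was searched as well and was matched in the Aqp7 and Abcc2 windows and in none of the windows printed here. The Abcc2 window also holds the TGACNNNGC core, as TGACATAGC from position -98. No motif searched was matched in the windows of Aqp3 and Aqp9.

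The genotype label held in every library: As3mt signal was 2624 to 6111 in WT liver and 0 to 5.98 in humanized liver, and 1218 to 1737 against 0 to 5.33 in adipose tissue. Tissue identity held as well, since the summed hepatocyte markers reached at least 6282382 in each liver library and the summed adipocyte markers at least 1394914 in each adipose library. The normalized signal of a library summed to between 77307210 and 95381805 in liver and to between 83100312 and 90417259 in adipose tissue. Reads could not be recovered from these values, so sequencing depth is unknown. Transcript lengths were not used here, so levels are compared between samples and not between genes, and both tables were normalized separately, so no test compares tissues. Some libraries stood apart, as judged after their values were seen. In liver, WT male replicate 1 had 302581 of Saa1, an acute-phase protein of hepatocytes, against 950.0 to 29631 in the other libraries. In adipose tissue, WT male replicate 5 had a summed hepatocyte marker signal of 216399 against 2144 to 17906 elsewhere, and a summed erythroid marker signal of 2160063 against 61467 to 419939. Also in adipose tissue, WT female replicate 6 had 307 of Wfdc2, a secreted epithelial protein, against 0 to 51.4 elsewhere.

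Aqp9, the main aquaglyceroporin of hepatocytes, was abundant in every liver library. Its liver signal was 26181, 34412 and 33146.5 in WT females and 29859.7, 32091 and 39723 in humanized females. In males it was 34999, 27989 and 34026.5 in WT and 42029, 35071 and 38595 in humanized animals. The 3 humanized male libraries were the highest of the males, narrowly above the highest WT male, while the female groups overlapped. Group means were 31246 ± 4432 in WT females, 33891 ± 5172 in humanized females, 32338 ± 3798 in WT males and 38565 ± 3479 in humanized males (SD, n = 3 each). Ranked by these means, no group differed from the next by more than the larger of its SDs. The genotype difference in males was 0.26 on the log2(signal + 1) scale, with a 95% interval of -0.12 to 0.65 and a limma adjusted p of 0.772. Among all 15180 genes tested in liver, 5.34% had every humanized male library above every WT male library, so a separation like that of Aqp9 is common. The difference in females was 0.12 and that between males and females 0.12, neither of them called.

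Aqp7 and Aqp3 were close to absent from liver. Aqp7 signal ranged from 0 to 11.4 and Aqp3 from 0.902 to 16.2 over the 12 liver libraries, and both fell under the mean of 10 required for a test. No order of groups is read from values this low.

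**Figure D1:**
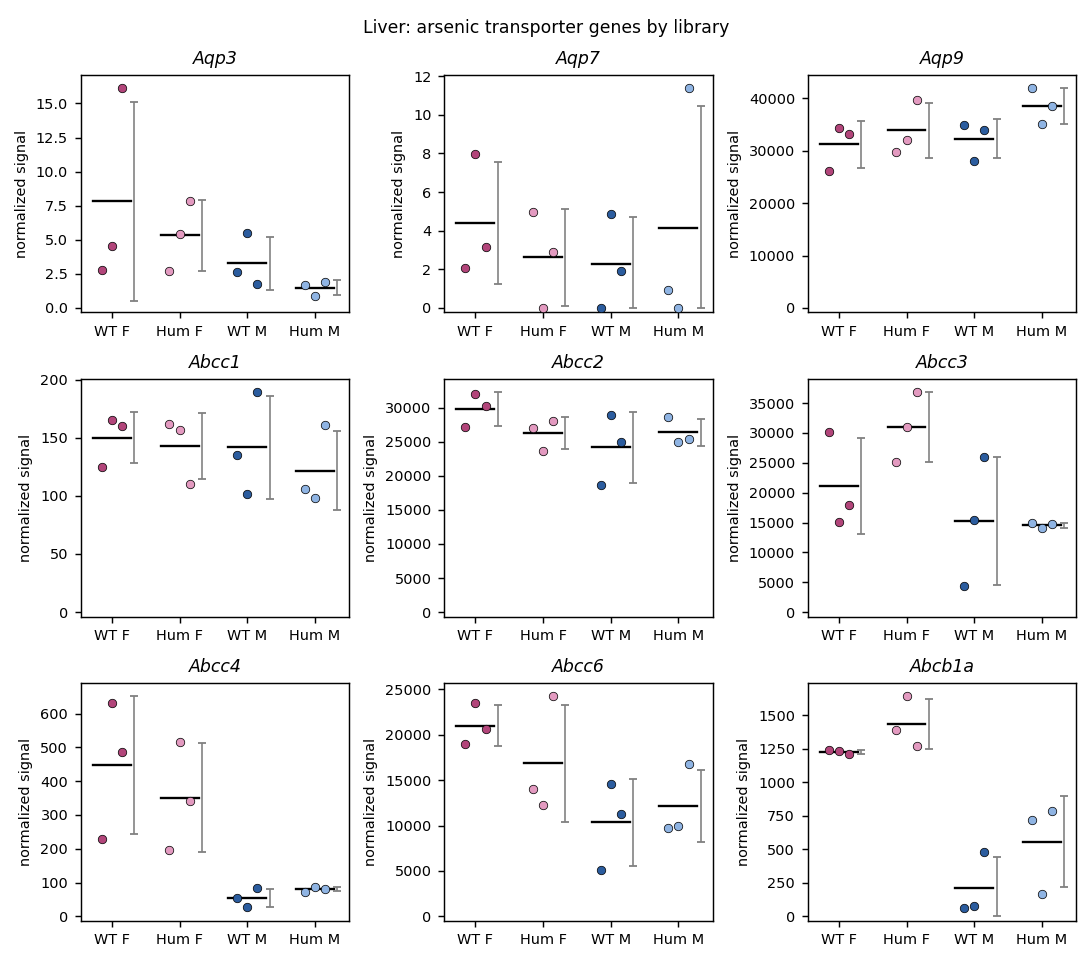
Normalized signal of the 9 transporter genes in each liver library (points), with the group mean (black line) and its SD (grey bar, stopped at 0), in WT and humanized (Hum) females (F) and males (M), on a linear axis of its own for each gene. Abcc4 and Abcb1a lie lower in all 6 male libraries than in any female library, while Aqp9 and Abcc2 lie at like levels in all 4 groups.

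Aqp7, the glycerol channel of adipocytes, was detected at a high level in every adipose library. Its adipose signal was 14671, 8783 and 13550 in WT females and 10052, 8078 and 8696 in humanized females, and it was 13523.5 and 18006 in WT males and 10911.5, 15854 and 14316 in humanized males. The 3 lowest of these groups' libraries were all female, 2 of them humanized, and the ranges of every pair of groups touched except those of humanized females and either male group. Humanized females had the lowest mean, 8942 ± 1009, followed by WT females at 12334.5 ± 3127, humanized males at 13694 ± 2529 (SD, n = 3 each) and WT males at 15765 ± 3169.7 (SD, n = 2). Only the step from humanized to WT females exceeded the larger SD of the pair next to each other in this order. The genotype difference in females was -0.44 (95% interval -0.92 to 0.05, limma adjusted p 0.933) and in males -0.21 (-0.75 to 0.34, adjusted p 0.855), the latter being 0.000628 without WT male replicate 5. Males exceeded females by 0.49 (0.12 to 0.85) with an unadjusted limma p of 0.0140, which did not pass over all 17394 genes tested (adjusted p 0.267). Without WT male replicate 5 the male minus female difference was 0.39.

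Aqp9 and Aqp3 were low in adipose tissue and were led by single libraries. Aqp9 signal was 43.2 and 976 in the WT males, 242, 373 and 306 in humanized males, 86.0, 256 and 187 in WT females and 319, 201 and 136 in humanized females. The 976 belonged to WT male replicate 5, the library with the highest hepatocyte marker signal. The genotype difference of Aqp9 in males was 0.54 with it and 2.78 without it, and neither was called (adjusted p 0.913 and 0.355). Aqp3, a glycerol channel of epithelia, was 278 in WT female replicate 6 and 3.01 to 33.8 in the other 10 libraries. The genotype difference of Aqp3 in females went from -1.31 to 0.11 when that library was left out, with no call either way. The summed epithelial markers of that library, 2445, lay within the 459 to 6220.1 of all 11 libraries, and the part of other cells in the Aqp3 value was not tested.

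**Figure D2:**
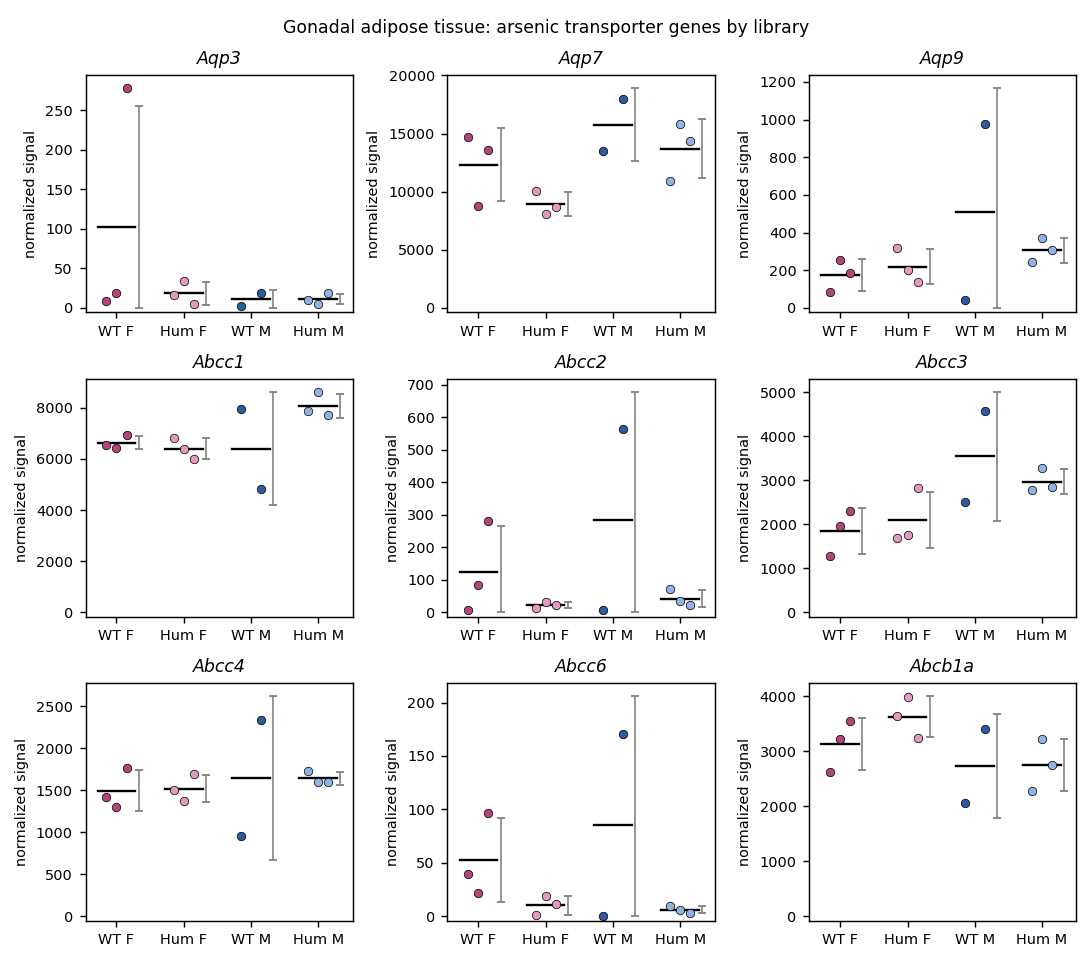
Normalized signal of the 9 transporter genes in each gonadal adipose library (points), with the group mean (black line) and its SD (grey bar, stopped at 0), in WT and humanized (Hum) females (F) and males (M), on a linear axis of its own for each gene. WT males have 2 libraries, and 1 of them holds the highest value of Aqp7, Aqp9, Abcc2, Abcc3, Abcc4 and Abcc6.

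Abcc4 and Abcb1a, both efflux pumps, were lower in male than in female liver. They were the 2 of 7 tested transporters that were called, against 9.59% of all genes called in either direction and 5.47% called lower in males. Abcc3 and Abcc6 had lower male means without passing the test, and Abcc1, Abcc2 and Aqp9 were not called either. The 6 tested pumps all had a difference below 0, with a median of -0.85, against a median of 0.01 over all genes.

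Abcc4, a basolateral pump for cyclic nucleotides, bile acids and, in human cells, methylated arsenic, had 229.3, 631 and 485 in WT female livers and 196, 516 and 341 in humanized female livers. In male livers it had 54.1, 27.4 and 82.5 in WT and 73.5, 86.7 and 81.8 in humanized animals. The highest male library lay below the lowest female one, as for 2.73% of all genes in this direction. The fitted Abcc4 signal was 5.72-fold lower in males (log2 difference -2.52, 95% interval -3.21 to -1.82, limma adjusted p 0.000917), in 6 of 6 male libraries against every female one. The difference was -1.87 within the libraries labelled as ribosomal depletion and -3.08 within those labelled as polyA enrichment. Each preparation held 6 liver libraries over the 4 groups, so few libraries stood for a group. Differences within a preparation, here and below, were not tested.

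Abcb1a, one of the pair of P-glycoprotein genes of the mouse and a pump for hydrophobic compounds, had 1241, 1235 and 1211 in WT female livers and 1389, 1644 and 1276 in humanized female livers. In males it had 64.6, 76.6 and 484 in WT and 718, 166 and 785 in humanized animals. Female libraries were alike and all above the males, while male libraries spread over a wide range within both genotypes. The fitted Abcb1a signal was 5.35-fold lower in males (log2 difference -2.42, 95% interval -3.47 to -1.37, limma adjusted p 0.0118). The difference was -3.09 within ribosomal depletion and -1.86 within polyA enrichment libraries. It was -2.24 without WT male replicate 1, with an adjusted p of 0.0304.

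Abcb1a lies next to Abcb1b, the other gene of the pair and similar to it, on chromosome 5. Some reads may have been divided between the genes in a way that the deposited values do not show, which leaves the value of Abcb1a less certain. Abcb1b in liver was 66.5, 757 and 346 in WT females, 544, 369 and 658 in humanized females, 2301, 322 and 182 in WT males and 76.5, 674 and 93.0 in humanized males. The 2301 was in WT male replicate 1, the library with the highest Saa1. Abcb1a made up 62.0% to 94.9% of the summed signal of the pair in females and 2.73% to 90.4% in males. The sum, computed after the values were seen, had a lowest, median and highest of 1308, 1933 and 2013.5 in females and of 399, 817 and 2366 in males. WT male replicate 1 was the highest of all libraries in that sum, and the other 5 male libraries, at 399 to 878, lay below all 6 females.

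Abcc3, a sinusoidal pump for glucuronides and bile acids, had 30178, 15135 and 17967 in WT females, 25173, 30941 and 36850.2 in humanized females, 4429, 15419.7 and 25971 in WT males and 14839, 14049 and 14726 in humanized males. Its male minus female difference was -0.91 (95% interval -1.69 to -0.12, limma adjusted p 0.137). The sexes overlapped through the WT males at 15419.7 and 25971, both above the lowest female at 15135. Abcc6, a basolateral pump needed for release of ATP from hepatocytes, had 19016, 23450.1 and 20598 in WT females, 14064, 12216 and 24259 in humanized females, 5143, 14619.5 and 11319 in WT males and 9784, 9951 and 16763 in humanized males. Its difference was -0.80 (-1.34 to -0.26, limma adjusted p 0.0669), and its groups overlapped as well. WT male replicate 1 was the lowest of the 12 libraries for Abcc3 and Abcc6, and also for Abcc2. Without it the differences were -0.50 and -0.60. Leaving out WT male replicate 3 took Abcc3 past the threshold (adjusted p 0.0438), and leaving out humanized female replicate 2 did so for Abcc6 (adjusted p 0.0168). Within polyA enrichment libraries the differences were -0.40 and -0.16, and within ribosomal depletion libraries, which hold WT male replicate 1, they were -1.92 and -1.40.

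Abcc2, the canalicular pump for glutathione conjugates, among them in the rat those of arsenic, varied little. Its liver signal was 27089.7, 32055 and 30196 in WT females, 27044, 23591 and 28085 in humanized females, 18671, 28908 and 24885 in WT males and 28664, 24949.8 and 25423 in humanized males. All 4 groups overlapped, and the lowest library was WT male replicate 1. The male minus female difference was -0.16 (95% interval -0.41 to 0.10, limma adjusted p 0.437), and -0.06 without that library. Abcc1, a pump for glutathione conjugates present in most cells, was low in liver at 97.9 to 189 over all libraries, and its difference was -0.18 (-0.62 to 0.25, adjusted p 0.614).

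Markers of capillary endothelial cells and of macrophages, which lie between hepatocytes, moved in the same direction as the lower pumps. Of 7 tested capillary endothelial markers 5 were called lower in male liver (Pecam1, Cdh5, Kdr, Emcn and Gpihbp1), and all 7 had a difference below 0, with a median of -0.85. Their summed signal was 9360 to 21528 in females and 5388 to 11539 in males. Of 7 macrophage markers 3 were called lower (Csf1r, Mrc1 and C1qa), with a median of -0.78 and summed signals of 10399 to 18752 in females and 5937 to 13842 in males. Lymphocyte markers were mixed. Of 7 tested, 5 had a difference below 0 and 2 above, with a median of -0.52, and Cd3e was called lower. Their summed signals overlapped, at 179 to 373 in females and 195 to 470 in males, with medians of 278 and 291. Other lists had differences of the opposite sign. All 7 cholangiocyte markers had a difference above 0, with a median of 0.26, and Sox9 was called higher. All 6 epithelial markers did as well, with a median of 0.57, and Krt8 and Krt18 were called higher. Of 6 erythroid markers 5 had a difference above 0, and Alas2 was called higher. None of the 8 hepatocyte markers was called, and 1 had an unadjusted limma p under 0.05. The part of these cells in the Abcc4 and Abcb1a values was not tested. In bulk tissue, fewer cells of a type and less RNA per cell cannot be told apart.

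The liver genes whose pattern over the 12 libraries was most like that of Abcc4 were Irf8, Il2rb and St6galnac2, with Pearson r of 0.963, 0.957 and 0.949. For Abcb1a they were Aldh3a2, Il16 and Ets1, with r of 0.945, 0.942 and 0.940. Irf8, Il2rb and Il16 are known chiefly from white blood cells, and the cell types that express St6galnac2, Aldh3a2 and Ets1 were not examined. The part of white blood cells in these patterns was not tested. For Abcc3 they were Ecm1, Ces1d and Acy1 (0.967, 0.951 and 0.942), and for Abcc6 Myo7a, Tkfc and Mndal (0.953, 0.921 and 0.914). For Abcc2 they were Trmt2b, Vdac1 and Rsrp1 (0.918, 0.887 and 0.847), and for Abcc1 Rfx5, Pip5k1c and Nfya (0.922, 0.869 and 0.844). Aqp9 had the least close neighbours, Lsm2, Gm27216 and C1d, at 0.779, 0.761 and 0.754. These are the highest of 11767 genes over libraries that share tissue and groups, and are given as a description.

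Other carriers of arsenic or of glutathione conjugates also differed by sex in liver, in both directions. Of 12 tested uptake carriers 1 rose in males and 2 fell. Slco1a1, an organic anion carrier, was 34984 to 45728 in males and 7.04 to 1585 in females (log2 difference 7.70, limma adjusted p 0.000908). Slco1a4, a carrier of the same family, was 811 to 5394 in males and 8858 to 20445 in females (-3.03, adjusted p 0.000547), and Slc2a4, the insulin-dependent glucose carrier, had -1.43 (adjusted p 0.0332). The median of the 12 was -0.19.

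Of 10 tested ABC exporters outside the main group 2 rose and 1 fell in males. Abcg2, an exporter of urate and xenobiotics, was 2828 to 7339 in males and 1128 to 2194 in females (1.66, limma adjusted p 0.000117), opposite in sign to Abcc4 and Abcb1a. Abcc12 had 1.58 (adjusted p 0.0494) at a low signal of 2.96 to 45.2, and Abcc5, an exporter of cyclic nucleotides, had -0.61 (adjusted p 0.0421). Of 4 other aquaporins Aqp1, the water channel of endothelium and bile duct, fell (-0.91, limma adjusted p 0.0274). Its direction was that of the endothelial markers above and opposite to that of the cholangiocyte markers. The part of either cell type in it was not tested.

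Of 11 genes of glutathione supply and conjugation, Gstp1 rose in males by 2.47 and Gstp2 by 1.59 (limma adjusted p 0.00339 and 0.0190). These are near-identical copies, and their values are uncertain between them. Of 15 regulators of transporter genes Foxo1 alone was called, with -0.53 (adjusted p 0.0465), and Nfe2l2, the factor that binds the antioxidant response element, had -0.13 (adjusted p 0.593). Of 10 genes of glycerol release and use Gpd1 was called, with 0.52 (adjusted p 0.0291). Over all genes 4.12% were called higher and 5.47% lower in males. The plot of liver sex differences by list shows the spread of each list around 0.

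**Figure D3:**
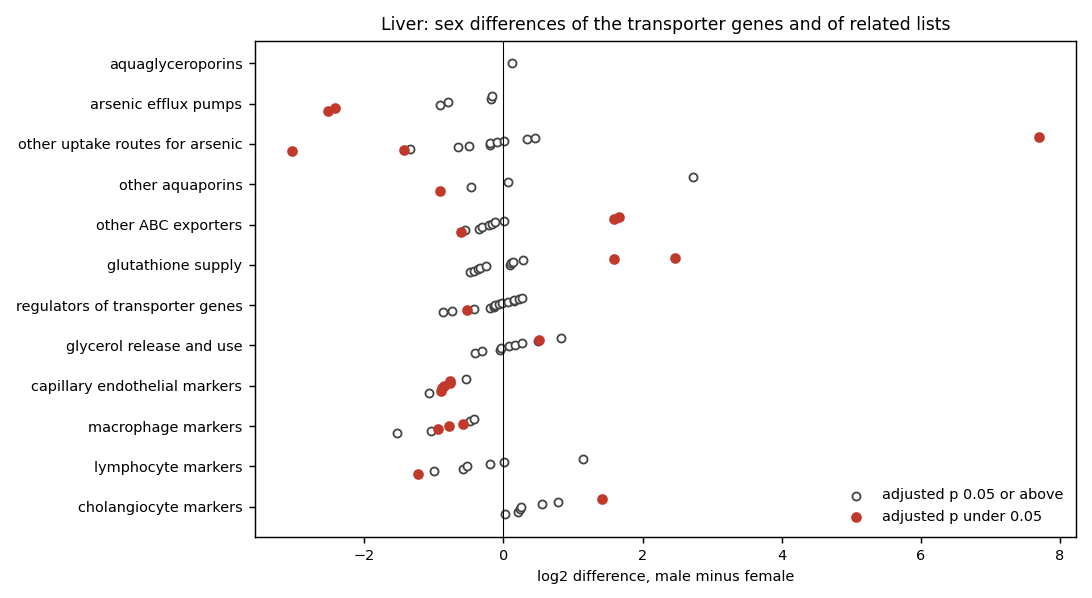
Liver log2 difference, male minus female over both genotypes, for each tested gene (point) of the transporter lists, the related lists and 4 lists of cell markers. Filled points passed limma at an adjusted p under 0.05. Among them are 2 of the 6 efflux pumps, both lower in males, and 5 of the 7 capillary endothelial markers, also lower. Filled points of the other lists lie on both sides of 0.

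Replacement of mouse As3mt by the human gene was not accompanied by a called change of any transporter. In liver, limma called 0 of the 7 tested transporters in males, in females, over both sexes and for genotype by sex, against 0.0329%, 0.0198%, 0.0329% and 0.00659% of all genes. At an unadjusted p under 0.05 there was 1 in males, 0 in females, 1 over both sexes and 0 for genotype by sex, and Abcb1a was the gene each time. In adipose tissue limma called 0 of 9 in each of these comparisons, against 0.0172%, 0.0172%, 0.023% and 0% of all genes, and 0 had an unadjusted p under 0.05.

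Among the tested transporters in liver, Abcb1a had the largest genotype difference in males and over both sexes, while in females that of Abcc3 was larger. Humanized males exceeded WT males by 2.00 (95% interval 0.47 to 3.54, unadjusted p 0.0153, limma adjusted p 0.630), although the humanized library at 166 lay under the highest WT library at 484. In females all 3 humanized libraries lay above all 3 WT libraries, with a difference of 0.47 (-1.06 to 2.00, adjusted p 0.901), a separation in this direction seen for 7.35% of all genes. Over both sexes the difference was 1.24 (0.12 to 2.35, adjusted p 0.880), and within the labelled preparations it was 1.25 and 1.22. The genotype difference did not pass as different between the sexes (1.53, -0.57 to 3.64, adjusted p 0.669). In males it ranged from 1.51 to 2.75 when each liver library was left out in turn, with adjusted p from 0.130 to 0.872. The summed signal of Abcb1a and Abcb1b did not separate the genotypes. It was 2366, 399 and 666 in WT males and 795, 839 and 878 in humanized males. In females it was 1308, 1991 and 1557 in WT and 1933, 2013.5 and 1933 in humanized animals. The sum was not tested.

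Abcc4 in male livers had a genotype difference of 0.86 (-0.16 to 1.88, limma adjusted p 0.718), with 2 of 3 humanized libraries inside the WT range. It was 1.25 without WT male replicate 1 (adjusted p 0.761). Abcc3 had 0.71 in females (-0.43 to 1.86, adjusted p 0.799) and 0.38 in males (-0.77 to 1.53, adjusted p 0.895). The male value of Abcc3 was -0.64 without WT male replicate 1. Abcc2 over both sexes had 0.02 with a 95% interval of -0.26 to 0.29, the narrowest interval of the tested group, and -0.12 without WT male replicate 1. Abcc2 is on chromosome 19, as As3mt is, with 56 protein-coding genes between them in GRCm38.p6. Abcc1 over both sexes had -0.04 (-0.50 to 0.42).

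**Figure D4:**
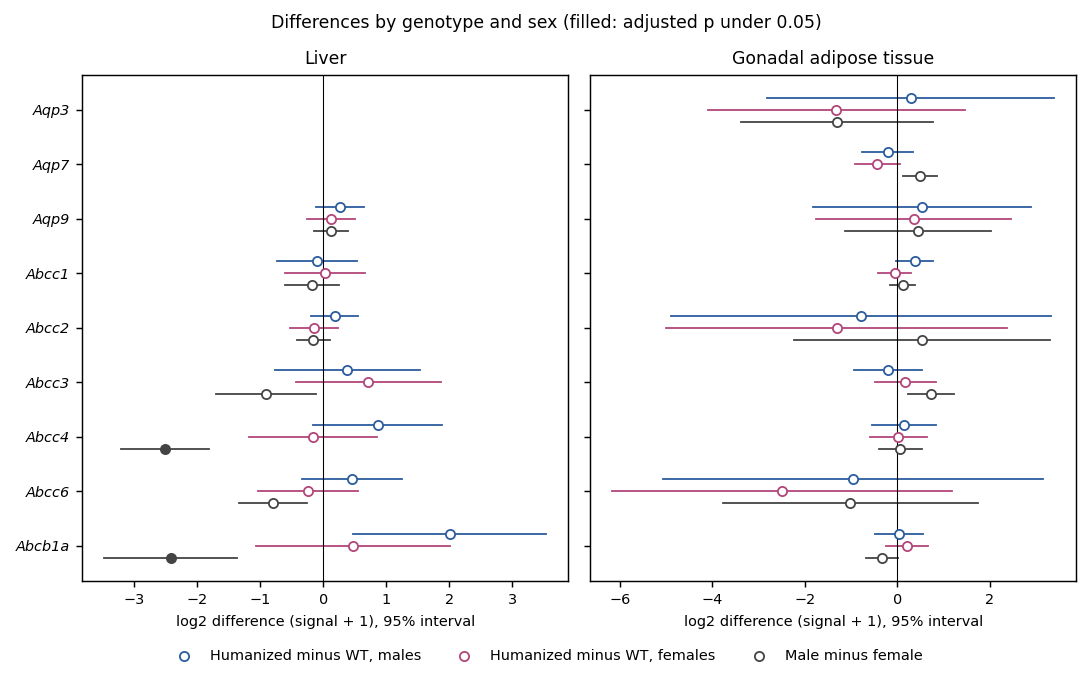
Fitted log2 differences of the transporter genes with 95% intervals, for humanized minus WT in males and in females and for male minus female, in liver (left) and gonadal adipose tissue (right), with filled points where the adjusted p was under 0.05. Abcc4 and Abcb1a in the liver sex comparison are filled, and no genotype difference is. Aqp3 and Aqp7 were not tested in liver.

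Abcc1, Abcc3, Abcc4 and Abcb1a were detected in every adipose library. Abcc1 was 6558, 6428 and 6927 in WT females, 6816, 6391 and 5994 in humanized females, 7975 and 4838 in WT males and 7862, 8621 and 7732 in humanized males. WT male replicate 5 was the lowest library and the other male libraries the highest. The genotype difference of Abcc1 in males was 0.38 (95% interval -0.02 to 0.77, limma adjusted p 0.617) with that library and 0.02 without it.

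Abcc3 was 1280.2, 1958 and 2297 in WT females, 1684, 1757 and 2832 in humanized females, 2504 and 4576 in WT males and 2775, 3284 and 2843 in humanized males. Males were higher except against the highest humanized female. The male minus female difference was 0.73 (0.24 to 1.22) with an unadjusted limma p of 0.00806 and an adjusted p of 0.220. Without WT male replicate 5, which has the highest value, it was 0.51. Abcc3 thus had lower male means in liver and higher male means in adipose tissue, neither called, and the difference between tissues was not tested.

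Abcb1a in adipose tissue was 2625, 3230.3 and 3546 in WT females, 3647, 3996 and 3246 in humanized females, 2068 and 3401 in WT males and 2273, 3229.8 and 2759 in humanized males. The sexes overlapped, with a difference of -0.32 (-0.66 to 0.03, limma adjusted p 0.437), and the Abcb1a share of the summed pair was 46.3% to 56.4% in females and 37.4% to 52.8% in males. Abcc4 ranged from 955 to 2337, both ends being WT males, and the sex difference was 0.06 (-0.40 to 0.53, adjusted p 0.924). Without WT male replicate 5, which holds the highest value of Abcc4, that difference was -0.26 (limma adjusted p 0.450), and that of Abcb1a was -0.50 (adjusted p 0.214). Neither Abcc4 nor Abcb1a was therefore called by sex in adipose tissue, where limma called 0 of 9 transporters against 0.42% of all genes, and 2 of 9, Aqp7 and Abcc3, had an unadjusted p under 0.05.

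Abcc2 and Abcc6, abundant in liver, were low in adipose tissue. Abcc2 was 5.43, 84.6 and 281 in WT females, 12.1, 32.1 and 22.6 in humanized females, 6.50 and 563 in WT males and 70.8, 33.3 and 20.8 in humanized males. Abcc6 was 39.7, 22.1 and 97.1 in WT females, 1.19, 18.7 and 11.2 in humanized females, 0 and 171 in WT males and 10.1, 5.60 and 3.31 in humanized males. The highest value of both was in WT male replicate 5 and the next highest in WT female replicate 6. Alb, the plasma albumin made by hepatocytes, was 129200 in the former and 4669 in the latter, against 598 to 12598 in the other 9 libraries, and all 8 hepatocyte markers were above 0 in every adipose library. The part of hepatocyte RNA in these values was not tested. Humanized females lay below all WT females for Abcc6 (-2.49, 95% interval -6.16 to 1.19, limma adjusted p 0.936), and 5.51% of all genes had non-overlapping groups in this direction. In males the genotype difference was -0.95 for Abcc6 and -0.78 for Abcc2 with WT male replicate 5, and 2.77 and 2.33 without it, none of them called.

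**Figure D5:**
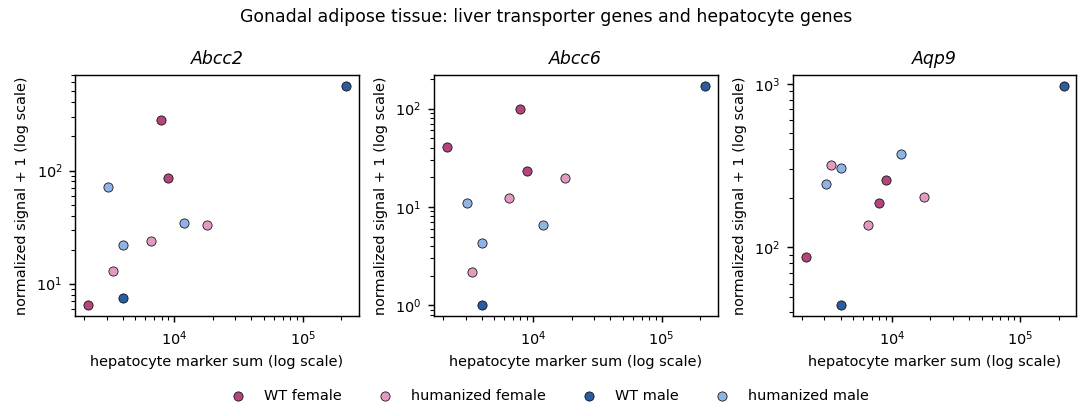
Signal plus 1 of Abcc2, Abcc6 and Aqp9 in each gonadal adipose library against the summed signal of 8 hepatocyte markers in the same library, both on log axes, coloured by group. WT male replicate 5 stands at the right, with a marker sum of 216399 and the highest value of each gene, and the other 10 libraries lie between 2144 and 17906.

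The adipose genes with the pattern most like that of Aqp7 over the 11 libraries were Naa80, Ablim3 and Msmp, with Pearson r of 0.952, 0.927 and 0.902. For Abcc2 they were Slc2a2, Hpn and Fbp1 (0.927, 0.921 and 0.911), genes known for their expression in hepatocytes, and for Abcc6 they were Slc27a2, Ewsr1 and Cideb (0.919, 0.909 and 0.888). For Aqp9 they were C1qtnf1, Dpep1 and Agtr1a (0.915, 0.905 and 0.887), and for Aqp3 Angptl7, Mpv17l and Lin37 (0.904, 0.902 and 0.872). For Abcc1 they were Gm56350, Myadm and Atn1 (0.930, 0.930 and 0.917), for Abcc3 Tcp11l2, Klhl36 and Khnyn (0.952, 0.930 and 0.928), for Abcc4 Hes6, Fam234b and Bcl2l11 (0.919, 0.915 and 0.910) and for Abcb1a Wnt5b, Slc22a17 and Gm28230 (0.928, 0.927 and 0.927). These are the highest of 13634 or 13635 genes and are given as a description. WT male replicate 5 holds the highest value of Abcc2, Abcc6 and Aqp9, and their r without it was not computed. Slc2a2 is itself an uptake carrier in the list above, and no uptake carrier, other ABC exporter, other aquaporin, gene of glutathione supply, regulator or gene of glycerol use was called by limma in any adipose comparison or in any liver genotype comparison. In adipose tissue, 13 genes of glutathione supply had a median genotype difference of -0.13 in males and 0.03 in females, and 11 genes of glycerol release and use had 0.18 and -0.17, against medians over all genes of 0.01 and -0.00128.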

How the data were processed

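mRNA was measured in 23 libraries of liver and gonadal adipose tissue. Values are normalized signal as the authors deposited it. The submitters' processing notes name mm9, STAR, Salmon, DESeq2 and limma without versions or roles. Of values under 50, 2.73% to 13.0% per library were whole multiples of the commonest step (within 0.001 steps), so counts were not recovered and a count model was not used.

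Linear models with moderated variances and a mean-variance trend (limma 3.58.1, R 4.3.3) were run on log2(signal + 1) for the genes of a table whose mean signal was at least 10. One fit per tissue covered its 4 groups, and in liver it included the labelled preparation (ribosomal depletion or polyA enrichment). The summed signal of RNAs without a polyA tail was 9048 to 19478 and 10273 to 14483 in the liver preparations, which thus overlap. These RNAs therefore did not bear out the preparation label, and values within a preparation rest on the label alone. Replicate numbers did not enter the fit. In adipose tissue, deviations from the group mean were positively correlated in 14 of 15 same-numbered pairs of libraries (median r 0.148, against -0.0895 for other pairs). Deviations within a group sum to 0, so a positive r for same numbers pushes that of other pairs below 0. The pairs also share libraries, so the contrast is no test of pairing. All 3 same-numbered pairs had r over 0.1 between humanized females and WT females (0.170 to 0.193) or humanized males (0.148 to 0.399). Not every other pair of groups did. The labels do not state a pairing. Fold changes on this scale understate the change of low genes. Tests are two-sided, with Benjamini-Hochberg adjustment over all genes tested, and a gene is called at an adjusted p under 0.05. The fit was also run on simulated data with independent noise, and no result given here rests on that run. Sums, ranges, promoter matches and plots were made with Python 3.11.15, pandas 2.3.3 and matplotlib 3.10.9.

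The transporters are named in every comparison. Of each related list the called genes are named, at most 4 by smallest p, and for each transporter the 3 genes with a mean of at least 100 and the highest Pearson r. The transporters, lists and markers were chosen with earlier results of these data known. Small RNA libraries were not analysed here.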

Additional observations from a re-analysis of the deposited data

How the results depend on the processing

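Both called transporters, Abcc4 and Abcb1a in the liver sex comparison, kept their direction and their call under every alternative tried: a pseudocount of 10, no filter on low signal, rescaling to equal total signal, no preparation covariate, the replicate block and each library left out (adjusted p 0.000723 to 0.00446 for Abcc4 and 0.00139 to 0.0356 for Abcb1a when a library was left out). Of 1270 values under alternatives, counts aside, 0 lost a call and 2 gained one, both given above. A change of sign was counted only where a fit was called, and 0 such reversals occurred. Most values had no call to lose, and uncalled differences did change sign. When each library was left out in turn, the genotype difference in males ran from -4.66 to 2.77 for Abcc6 in adipose tissue. For Abcc3 in liver it ran from -0.64 to 0.84. The count of transporters called was 2 to 3 in the liver sex comparison and 0 in each other comparison.

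Over all genes, the liver genotype calls went from 5 to 8 in males and from 3 to 5 in females with a pseudocount of 10, and genotype by sex went from 1 to 2 without the preparation covariate. In liver, same-numbered libraries did not deviate together (r -0.154 to 0.113), and 2 of 12 libraries correlated best with one of their own number. There the replicate block gave 3 genotype calls in males and 2 over both sexes, from 5 each. In adipose tissue the replicate block left the genotype counts as they were, at 3 for each sex and 4 over both, and gave 56 sex calls against 73. It changed no call of a transporter in either tissue. Leaving out 1 library gave, in liver, 3 to 15 (males), 2 to 6 (females), 2 to 7 (both sexes), 0 to 10 (genotype by sex) and 854 to 1544 (sex), and in adipose tissue 2 to 8, 2 to 8, 3 to 7, 0 to 6 and 39 to 91. The cause of these shifts was not tested. WT males have 2 adipose libraries, so leaving out 1 assumes that the other varies like the remaining groups. Unknown depth limits Aqp3 and Aqp7 in liver and Abcc6 in adipose tissue, whose signals reach 0 or near it.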
